A study of Mus musculus with 12 samples.

Results

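The response of Gpr31b knockout macrophages to LPS and IFN-γ was followed in 6 of the 12 RNA-seq libraries of the study, chosen by their column labels. Of these, 3 libraries came from knockout (KO) bone-marrow-derived macrophages after LPS and IFN-γ (M1) and 3 from KO cells without stimulation (M0). The other 6 libraries came from wild-type (WT) mice in the same states, again 3 and 3, and are used to share the estimate of the spread and to set a WT value beside a KO value. Of the 24552 rows of the count table, each named by a gene symbol, 10005 held a count in a KO library and 2333 had enough counts to be tested. The labels give no strain, age, dose or duration of stimulation, do not say which part of Gpr31b was deleted, and do not say whether libraries came from separate animals. The p-values therefore measure the spread between these libraries, which may be technical. In bulk RNA such as this, fewer cells of a type and less RNA per cell cannot be told apart.

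LPS, a component of the outer membrane of Gram-negative bacteria, is sensed by Toll-like receptor 4, which activates NF-κB and AP-1 and, through a second adaptor, the production of type I interferon. IFN-γ, the cytokine of T and NK cells, acts on genes through GAS elements in DNA, while type I interferon acts through the ISRE. Together they drive the classical, microbicidal state of macrophages: guanylate-binding proteins, nitric oxide and itaconate synthesis, chemokines and antigen presentation. Gpr31b is the mouse gene of GPR31, a G protein-coupled receptor for a lipid made by 12-lipoxygenase.

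The KO libraries held 410131 to 432092 counts in M0 and 396945 to 455160 in M1, which is shallow and limits what can be seen of low rows. The Gpr31b row was at 0 in all 6 KO libraries and all 3 WT M0 libraries, and held 2 counts in each WT M1 library, so the deletion could be checked only against that low WT level. Tested rows held 96.8% to 97.7% of the counts of a KO library. The 10 highest rows took 21.1% to 22.1% of the counts in KO M0 and 32.2% to 34.3% in KO M1, so the M1 libraries were more concentrated. Levels are given in CPM, the count of a row divided by the size of its library after scaling by TMM, which sets the middle of the rows equal between libraries. The scaling factors were 1.18 to 1.20 in KO M0 and 0.848 to 0.871 in KO M1. CPM is not divided by length, so it compares libraries within a row and not rows with each other.

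All 10 defining macrophage markers fixed for the check were measured, and 6 of their rows were higher and 2 lower in KO M1. The 2 lower rows were Csf1r and Lyz2, whose values are given below. Together the 10 rows summed to 317 to 653 CPM in KO M0 and 414 to 603 CPM in KO M1. Of the higher rows, Fcgr1, Cd14 and Ptprc held only 2, 8 and 10 counts over the 3 KO M0 libraries. The row of Ptprc, the pan-leukocyte phosphatase CD45, held 3.92, 13.9 and 2.03 CPM in KO M0 and 20.8, 50.02 and 65.6 CPM in KO M1. The row of Cd14, the LPS co-receptor, held 0, 7.94 and 8.14 CPM in KO M0 and 80.2, 73.7 and 53.0 CPM in KO M1, and its libraries did not overlap either. Rows of other cell types were nearly empty: no row of the T and NK, B and plasma, erythroid and megakaryocyte, mast and basophil, or stroma and endothelium lists had enough counts to be tested. The summed level of the neutrophil list was 19.6 to 21.8 CPM in KO M0 and 5.27 to 14.9 CPM in KO M1. The dendritic cell list summed to 49.0 to 69.4 CPM in KO M0 and 539.9 to 746 CPM in KO M1, of which the row of Xcr1, a chemokine receptor, made up most. That row held 11.8, 27.8 and 26.5 CPM in KO M0 and 716, 579 and 492 CPM in KO M1, without overlap. The row of Clec9a, a receptor for dead cells, held 6, 11 and 12 counts in KO M0 and none in KO M1. Of the 11 genes of that list 4 had no count in any KO library. The part of such cells in the results was not tested.

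The first comparison asked which rows differed between stimulated and unstimulated KO macrophages. A quasi-likelihood test in edgeR over all 12 libraries called 1110 of 2333 rows (47.6%) at a Benjamini-Hochberg adjusted p under 0.05. Of these, 588 rows (25.2% of those tested) were higher in M1 and 522 (22.4%) were lower. The 3 M1 libraries lay wholly above or wholly below the 3 M0 libraries in 1289 rows (55.3%), of which 1055 were called, and 55 called rows overlapped. The called rises had a median size of 1.997 and the called falls one of 1.67 on the log2 scale, while the median of all tested rows was 0.01. At least 2-fold changes made up 441 of the rises and 395 of the falls, and changes of 4 or more on the log2 scale 116 and 57. In 49 of the risen rows all KO M0 libraries were at 0, and in 22 of the fallen rows all KO M1 libraries were at 0.

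The split of rises and falls depended on the scaling. With library size alone in place of TMM, the median of all rows was −0.46 on the log2 scale, and 393 rows were called higher and 850 lower, so that rises made up 31.6% of the calls. Under that scaling 32 of the 1110 called rows changed sign and 1 was called in the other direction. The changes below are relative to the TMM-scaled middle. The share of called rows also rose with the level of the row: 12.4% of the 137 rows under 20 CPM in the higher group were called, 36% of the 1200 rows from 20 to 100 CPM, 62.9% of the 777 rows from 100 to 1000 CPM and 78.5% of the 219 rows above that. The median standard error of the log2 fold change was 0.88 in the lowest class and 0.11 in the highest.

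**Figure D1:**
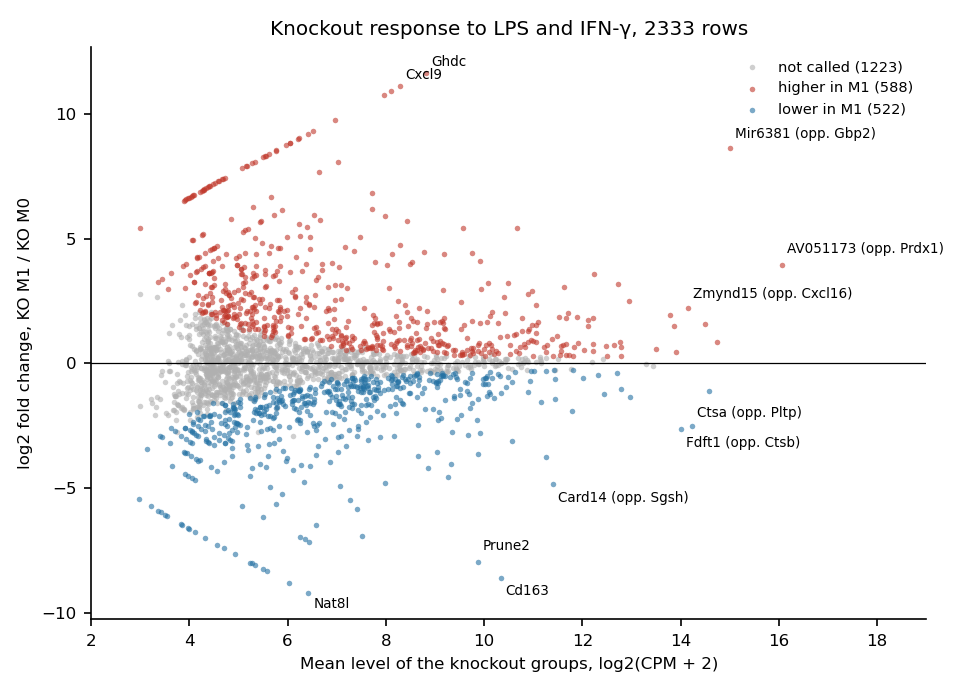
Log2 fold change of each of the 2333 tested rows between KO M1 and KO M0 (y axis) against its level (x axis, log2 scale), with called rows coloured by direction and the largest gains and losses labelled. Rises reach further from 0 than falls, and called rows become more frequent to the right. Fold changes of rows with a group at 0 are fitted values that depend on the method.

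Most tested rows shared their locus with a gene on the opposite strand. Of the 2333 tested rows, 1546 (66.3%) had exons that overlapped an opposite-strand exon by 20 bases or more. The same held for 69 of the 70 annotated rows whose KO mean reached 1000 counts and for 1951 of the 14337 annotated rows with no KO count (13.6%). By direction, it held for 360 of the risen rows (61.2%), 392 of the fallen rows (75.1%) and 794 of the rows not called (64.9%). A further 398 tested rows had no such overlap but lay within 5000 bases past the end of an opposite-strand gene. Of these, 93 were risen rows and 86 fallen rows. Among them were Nos2, 2720 bases past Lgals9, Cd38, 1206 bases past Gm16015, and Cd74, 1103 bases past Tcof1. Aim2 lay 2445 bases past Ifi206, and Ctsc 413 bases past Gm26522. The libraries were strand-specific, but the strand setting of the authors' counting is not given in the sources used here. It is therefore not known which strand a row counted, and this holds for rows without an overlapping exon too. Which gene of an overlapping pair a row measures cannot be told, and the opposite-strand genes are named beside the rows that are given values.

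Interferon-inducible GTPases rose in every tested row. These proteins assemble on the vacuoles of intracellular pathogens and break them open. All 11 tested rows of that list were called higher in KO M1, with a median log2 fold change of 6.64. Of all tested rows, 25.2% were higher and 22.4% lower, with a median of 0.01, and these shares apply to every list below. Of the 19 genes of the list, 10 were tested in their own row, and the other row lay opposite Gbp2, itself tested. In this and later lists, a row at 0 in all KO M0 libraries entered the test only through other groups. Its rise was therefore partly set by the filter, and genes without counts in either state are left out. The Mir6381 row, on the minus strand of chromosome 3 at 142623860 to 142623946 (GRCm38), overlaps an exon of Gbp2, a guanylate-binding protein, by 24 bases. It held 116, 202 and 173 CPM in KO M0 and 67296, 65468 and 64306 CPM in KO M1. Each M1 library lay far above each M0 library (log2 fold change 8.65 ± 0.15 SE, edgeR adjusted p = 1.87e-21). Its own label is a microRNA, whose mature form is not captured in libraries of polyadenylated RNA. The mature sequence lies at chr3:142623925-142623945 on the minus strand, outside the 24 overlapping bases, and is shown here, from RefSeq on GRCm38.p6, because its row took up more counts after stimulation than all rows but AV051173 (bases 2 to 8, the seed, in capitals).
mmu-miR-6381: cAGGAUGCuggugacaugagu

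The Gbp2 row itself held 0 in all 3 KO M0 libraries and 149, 329 and 255 CPM in KO M1, a rise of at least 124-fold, where such a bound is taken against 3 counts over the group at 0. Both rows of the locus were therefore high in every M1 library and low or empty in every M0 library. The row of Iigp1, an immunity-related GTPase that acts on the vacuole of Toxoplasma, held 0 in all 3 KO M0 libraries and 92.1, 132 and 45.4 CPM in KO M1. That of Gbp5, which promotes inflammasome assembly, held 3.92, 3.97 and 6.10 CPM in KO M0 and 175, 187 and 139 CPM in KO M1. None of the M0 libraries of these rows reached any M1 library, and Iigp1 was at least 44.6-fold higher. Gbp4, Gbp6 and Igtp were also at 0 in all KO M0 libraries.

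Tested rows of type I interferon targets rose with 1 exception. Of 21 tested rows of the list, 20 were called higher and 1 lower in KO M1 (18 and 1 by library size alone), with a median log2 fold change of 4.10. Of all tested rows 25.2% were higher. Only 20 of the 50 genes of the list were tested in their own row, and rows at 0 in KO M0 entered only through other groups. The row of Ifit2, which binds viral RNA and blocks its translation, held 0 in all 3 KO M0 libraries and 163, 200.1 and 136 CPM in KO M1. That of Rsad2, the antiviral enzyme viperin, held 0 in all 3 KO M0 libraries and 146, 147 and 139 CPM in KO M1. Both rows were without a count in KO M0 and counted in all KO M1 libraries, at least 83.4-fold and 72.2-fold higher. The row of Oas3, which senses double-stranded RNA, held 0 in all 3 KO M0 libraries and 56.5, 60.6 and 25.2 CPM in KO M1. Parp9, an ADP-ribosyltransferase that partners with the ubiquitin ligase Dtx3l on the opposite strand, held 351, 532 and 551 CPM in KO M0 and 3518, 3130.4 and 3287 CPM in KO M1 and rose too. The exception was Ifi27l2a, an interferon-induced mitochondrial protein, whose row held 378, 308 and 368 CPM in KO M0 and 14.9, 60.6 and 45.4 CPM in KO M1. It was lower in every M1 library than in any M0 library (log2 fold change −3.09 ± 0.28 SE, edgeR adjusted p = 5.82e-11), and in WT cells its fold change was −3.11. The end of Ifi27 lies 1928 bases away on the other strand.

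**Figure D2:**
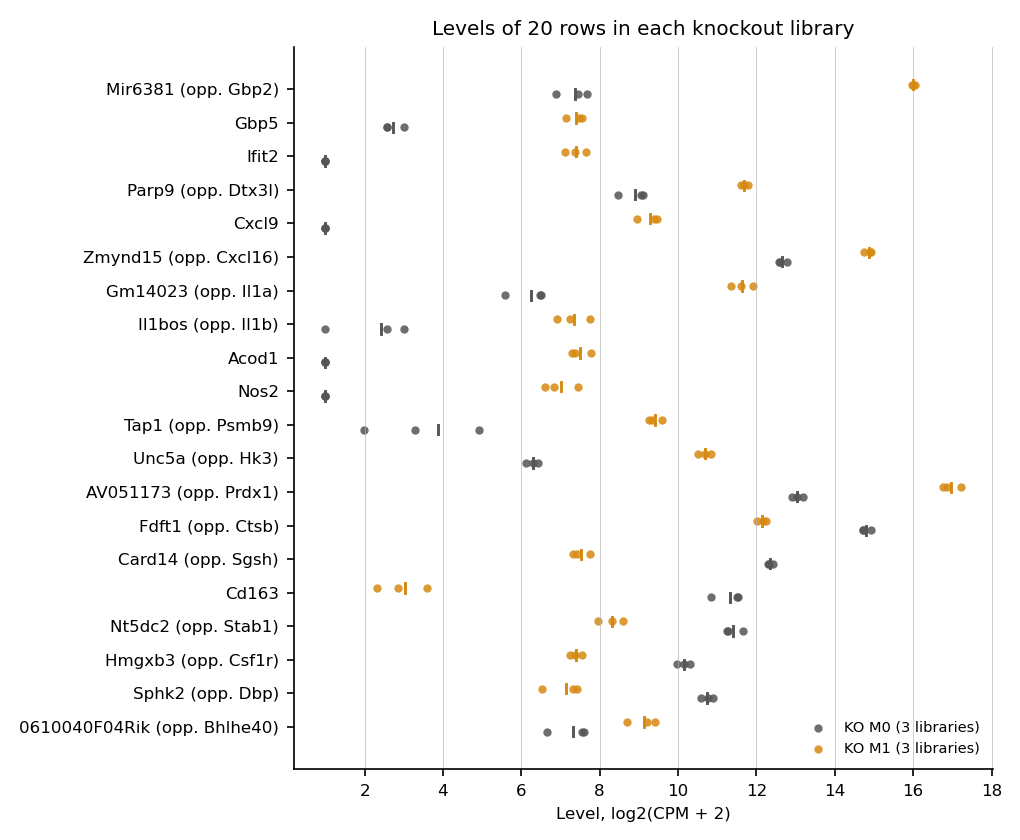
Level in each of the 6 KO libraries (points, log2 of CPM + 2, with a bar at the group mean) for 20 rows, M0 and M1 side by side. Rows such as Cxcl9 and Ifit2 are at 0 in all M0 libraries, and the points of the 2 states do not overlap in the rows drawn.

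Regulators above these targets were called higher more often than lower. In the list of IRF, STAT and SOCS regulators, 9 of 12 tested rows were called higher and 1 lower (8 and 2 by library size alone). Of the 30 genes of that list, which also holds feedback inhibitors, 8 were tested in their own row and 7 of these were higher, and the other tested rows lay opposite a member. Stat2, a mediator of type I interferon signals, held 3.92, 1.98 and 4.07 CPM in KO M0 and 86.2, 137 and 60.6 CPM in KO M1. Stat5b, a STAT of growth factor receptors, held 0, 7.94 and 0 CPM in KO M0 and 71.3, 42.1 and 60.6 CPM in KO M1. The M1 libraries were above all M0 libraries in both rows, with log2 fold changes of 4.72 ± 0.63 and 4.31 ± 0.81 (SE) and edgeR adjusted p of 1.64e-07 and 4.61e-05. Irf1, a factor that activates interferon genes, opposite Gm17334, held 9.80, 13.9 and 6.10 CPM in KO M0 and 77.3, 68.5 and 50.5 CPM in KO M1 and rose. The Phrf1 row, opposite Irf7, the factor that amplifies type I interferon, held 3.92, 1.98 and 4.07 CPM in KO M0 and 107, 142 and 108 CPM in KO M1 and also rose. The row that fell was Bcl2l12, opposite Irf3 and Gm15545, at 23.5, 19.8 and 36.6 CPM in KO M0 and 0, 5.27 and 5.05 CPM in KO M1. That call rests on few counts: without the third KO M0 library its adjusted p was 0.0742, and without the first KO M1 library it was 0.0691.

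Letters of these elements stand in the promoters of some of these genes. Of 15 genes whose windows were searched, 5 held a match (Gbp2, Gbp5, Rsad2, Irf1 and Slfn5), and Ifit2, Acod1, Cxcl9, Ptgs2, Cd274, Psmb9, Tap1, Cd38, Prdx1 and Cd163 held none. Shown are the 200 bases before the start of 4 genes, from RefSeq on GRCm38.p6, 5′ to 3′ on the strand of the gene, chosen after their values were seen because their rows rose together in KO M1 and their windows hold a match. Capitals mark matches on either strand to the ISRE core (GAAA, any 2 bases, GAAA), the GAS (TTC, any 3 bases, GAA) or the κB site (GGGA, any base, TTTCC). The ISRE core begins −59 bases from the start in Gbp2, −120 in Rsad2 and −165 in Gbp5. The GAS begins at −90 in Irf1 and −52 in Gbp5, which also holds a κB site at −77.
Gbp2, chr3:142620463-142620662, plus strand: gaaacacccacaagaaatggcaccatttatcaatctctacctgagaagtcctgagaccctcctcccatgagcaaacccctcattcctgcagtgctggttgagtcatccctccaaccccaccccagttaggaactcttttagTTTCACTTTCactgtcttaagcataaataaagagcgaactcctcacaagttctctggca
Gbp5, chr3:142496734-142496933, plus strand: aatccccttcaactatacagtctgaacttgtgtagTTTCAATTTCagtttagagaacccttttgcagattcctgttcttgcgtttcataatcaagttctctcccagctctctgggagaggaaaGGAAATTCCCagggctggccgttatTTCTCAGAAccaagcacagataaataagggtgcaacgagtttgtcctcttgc
Rsad2, chr12:26456453-26456652, minus strand: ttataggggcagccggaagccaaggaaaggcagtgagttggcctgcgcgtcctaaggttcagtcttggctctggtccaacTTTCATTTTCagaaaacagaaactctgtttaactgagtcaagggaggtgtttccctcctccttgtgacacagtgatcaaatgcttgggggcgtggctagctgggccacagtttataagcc
Irf1, chr11:53769814-53770013, plus strand: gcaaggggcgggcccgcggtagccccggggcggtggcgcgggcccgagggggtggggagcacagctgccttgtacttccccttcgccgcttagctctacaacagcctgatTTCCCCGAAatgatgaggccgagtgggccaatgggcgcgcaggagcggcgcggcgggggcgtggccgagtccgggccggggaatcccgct
Across the 250 bases before the start, the ISRE core was found in 978 of the 32851 promoters of the RefSeq table (2.98%). It was found in 34 of the 559 promoters of the genes that name the risen rows (6.08%), in 16 of 503 for fallen rows (3.18%) and in 30 of 1308 for rows not called (2.29%). For the genes opposite the risen rows it was 20 of 381 (5.25%), and 7 of 415 for those opposite fallen rows (1.69%). Opposite rows not called it was 15 of 788 (1.90%). Risen rows with no opposite-strand exon had it in 21 of 206 promoters (10.2%). No such share was taken for fallen rows or rows not called, so this value has no like share to be set against. The GAS was found in 7.02% of all promoters, 8.94% of those of the risen rows, 6.16% for fallen rows and 4.36% for rows not called. For the genes opposite risen rows the GAS was found in 4.20%, below the share of all promoters, and for those opposite fallen rows in 7.71%. The κB site was found in 0.356% and 0.894%, the latter being 5 promoters. A match is a run of letters and not a measured site.

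Most tested chemokine rows rose, several of them from 0 in M0. Of 6 tested rows, 5 were called higher in KO M1 and none lower (5 and 1 by library size alone, the fall being Ccl3), with a median log2 fold change of 5.30. Of all tested rows 25.2% were higher. Only 5 of the 21 genes of the list were tested in their own row, and rows at 0 in KO M0 entered only through other groups. Cxcl9, which attracts T cells through CXCR3 and is a standard readout of IFN-γ, held 0 in all 3 KO M0 libraries and 704, 671 and 489 CPM in KO M1, at least 309-fold higher. Ccl5 held 0 in all 3 KO M0 libraries and 107, 103 and 103 CPM in KO M1. Cxcl10, another CXCR3 ligand, whose row overlaps Art3, held 0 in all 3 KO M0 libraries and 56.5, 163 and 63.1 CPM in KO M1. No M0 library held a count of these 3 chemokines. The Zmynd15 row, opposite Cxcl16, a chemokine anchored in the membrane, was already high at 6191, 6113 and 7085 CPM in KO M0 and 31194, 30749 and 27571 CPM in KO M1, and the M1 libraries all lay above (log2 fold change 2.21 ± 0.08 SE, edgeR adjusted p = 7.47e-21). Ccl3, which attracts monocytes, held 286, 381 and 372 CPM in KO M0 and 273, 182 and 298 CPM in KO M1, with an edgeR adjusted p of 0.0645.

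Most tested rows of the inflammatory cytokine list lay opposite a cytokine gene. Of 8 tested rows, 7 were called higher and none lower, of which 5 were rows opposite a cytokine gene. Only 3 of the 25 genes of the list were tested in their own row, and 12 had no count in any KO library. Il1b, the pyrogenic interleukin-1β, held 0 in all 3 KO M0 libraries and 74.3, 65.8 and 65.6 CPM in KO M1 in its own row. The Il1bos row opposite it held 3.92, 0 and 6.10 CPM in KO M0 and 149, 118 and 212 CPM in KO M1. Gm14023, opposite Il1a, held 88.2, 45.6 and 87.5 CPM in KO M0 and 3833, 2606 and 3144 CPM in KO M1. In all 3 rows the M1 libraries lay above every M0 library. The Tnf row was under the filter, with 0 counts in all KO M0 libraries and 0, 10 and 5 counts in KO M1, so 1 of the 3 M1 libraries had none.

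Enzymes that mark the classical state were among the largest rises. Of 14 tested rows in that list, 9 were called higher and 2 lower in KO M1. Acod1, which makes the antibacterial metabolite itaconate, held 0 in all 3 KO M0 libraries and 155, 219 and 164 CPM in KO M1. Nos2, the inducible nitric oxide synthase, held 0 in all 3 KO M0 libraries and 113, 174 and 95.9 CPM in KO M1. Cd38, an NAD-consuming ectoenzyme, held 0 in all 3 KO M0 libraries and 152, 73.7 and 136 CPM in KO M1. All KO M0 libraries were empty for them, and the rises were at least 90.2-fold, 64.0-fold and 60.0-fold. Both falls were in rows opposite a member. Ncaph2, opposite Sco2 and Tymp, fell from 1072, 769.9 and 796 CPM in KO M0 to 279, 171 and 103 CPM in KO M1. The row of Tymp itself was not called (log2 fold change −0.88 ± 0.63 SE, edgeR adjusted p = 0.252). Vti1b, opposite Arg2, fell from 173, 109 and 108 CPM in KO M0 to 29.7, 57.9 and 78.2 CPM in KO M1. The row of Arg2, a mitochondrial arginase, which also overlaps Gm48780, was not called either, with a log2 fold change of 0.33 ± 0.41 (SE) and an edgeR adjusted p of 0.544. Arg1, the arginase of alternatively activated macrophages, had 0, 1 and 2 counts in KO M0 and none in KO M1, which is too few for a test.

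Tested rows of the lipid pathway around GPR31 moved both ways. Of 7 tested rows, 3 were called higher and 2 lower, where 25.2% of all tested rows were higher and 22.4% lower. Only 6 of the 32 genes of the list were tested in their own row, too few to read the list as a whole. Ptgs2, the inducible cyclooxygenase, held 0 in all 3 KO M0 libraries and 62.4, 139.5 and 111 CPM in KO M1. Pla2g7, which breaks down platelet-activating factor, held 0 in all 3 KO M0 libraries and 26.7, 13.2 and 37.8 CPM in KO M1 in its own row. The 1700071M16Rik row opposite it held 899.9, 564 and 745 CPM in KO M0 and 8694, 9141 and 8952 CPM in KO M1. All 3 rows rose without overlap. Ptgs1, the constitutive cyclooxygenase, opposite Gm43621, went the other way at 17.6, 23.8 and 32.6 CPM in KO M0 and 0 in all 3 KO M1 libraries, a fall of at least 9.12-fold. Ptgir, the prostacyclin receptor, held 302, 274 and 234 CPM in KO M0 and 83.2, 63.2 and 73.2 CPM in KO M1 and fell as well. The lipoxygenases were hardly counted: the Alox12 row had 0, 2 and 2 counts in KO M0 and 0, 6 and 1 counts in KO M1, and Alox15 was at 0 in all KO libraries.

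Rows of the MHC class I route rose more often than not. Of 18 tested rows of the MHC class I list, 12 were called higher and none lower (11 and 1 by library size alone). Tap1, a subunit of the peptide pump into the endoplasmic reticulum, held 7.84, 1.98 and 28.5 CPM in KO M0 and 645, 608 and 775 CPM in KO M1. Psmb9, the immunoproteasome subunit on the opposite strand of the same locus, held 29.4, 23.8 and 24.4 CPM in KO M0 and 131, 73.7 and 85.8 CPM in KO M1. M1 libraries were higher in both, by 5.71 ± 0.41 for Tap1 and 1.88 ± 0.40 for Psmb9 (log2 fold change ± SE), with edgeR adjusted p of 9.98e-10 and 2.00e-04. H2-T22, a class Ib molecule, opposite A930015D03Rik, held 25.5, 15.9 and 32.6 CPM in KO M0 and 339, 411 and 487 CPM in KO M1. 9330175E14Rik, opposite Nlrc5, the transactivator of class I genes, held 25.5, 41.7 and 26.5 CPM in KO M0 and 446, 445 and 553 CPM in KO M1. Both rose without overlap. For MHC class II, 5 of 6 tested rows were called higher and none lower, among them Cd74, the invariant chain, at 0, 0 and 4.07 CPM in KO M0 and 139.7, 100.05 and 63.1 CPM in KO M1. On so few M0 counts its ratio was 74.4 (95% counting interval 20.1 to 622). The Dexi row, opposite Ciita, the class II transactivator, held 7.84, 7.94 and 2.03 CPM in KO M0 and 62.4, 92.1 and 55.5 CPM in KO M1.

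In the costimulation and checkpoint list, 5 of 7 tested rows were called higher and none lower, and in the pattern recognition list 5 of 8 and none, where 25.2% of all tested rows were higher. The other 2 and 3 tested rows were not called, and most of the 21 and 32 genes of these lists were not tested. Tnfrsf8, the receptor CD30, held 0 in all 3 KO M0 libraries and 119, 129 and 189 CPM in KO M1. Cd274, the checkpoint ligand PD-L1, opposite AC119228.1, held 0, 0 and 4.07 CPM in KO M0 and 68.3, 121 and 149 CPM in KO M1, a ratio of 86.6 (95% counting interval 23.5 to 723). Tlr1, a partner of TLR2 in sensing lipopeptides, held 11.8, 0 and 0 CPM in KO M0 and 149, 94.8 and 192 CPM in KO M1. No M0 library overlapped an M1 library in these rows. Aim2, a sensor of DNA in the cytosol, held 3.92, 0 and 0 CPM in KO M0 and 53.5, 55.3 and 85.8 CPM in KO M1. Tlr6 held 3.92, 0 and 0 CPM in KO M0 and 29.7, 7.90 and 37.8 CPM in KO M1, and its adjusted p was 0.0542 without the third KO M1 library.

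Of the NF-κB list, 4 of 5 tested rows were called higher and none lower. Only 2 of the 30 genes of that list were tested in their own row, and the other 3 tested rows lay opposite a member. The Psd row, opposite Nfkb2, which encodes the p100 precursor, held 931, 1292 and 1551 CPM in KO M0 and 4918, 4039 and 4857 CPM in KO M1. Tnfaip2, a TNF-induced gene, opposite Gm40578, held 17.6, 3.97 and 6.10 CPM in KO M0 and 107, 68.5 and 65.6 CPM in KO M1. AP-1 and stress regulators were mixed: of 16 tested rows, 8 were called higher and 2 lower, or 6 and 5 by library size alone. Of all tested rows 25.2% were higher and 22.4% lower. Klf6, an injury-response factor, rose from 3.92, 3.97 and 0 CPM in KO M0 to 20.8, 50.02 and 35.3 CPM in KO M1. Dusp1, which switches off MAP kinases, rose from 3.92, 3.97 and 10.2 CPM in KO M0 to 38.6, 79.0 and 55.5 CPM in KO M1. Fosl1 and the Ccdc85b row opposite it went apart. Fosl1, an AP-1 subunit, fell from 29.4, 17.9 and 48.8 CPM in KO M0 to 5.94, 5.27 and 5.05 CPM in KO M1. Ccdc85b rose from 114, 49.6 and 65.1 CPM in KO M0 to 244, 192 and 199 CPM in KO M1. The fall of Fosl1 had an adjusted p of 0.0809 without the third KO M0 library. In the cell death list 3 of 7 tested rows were higher. Bcl2l14, a BCL2 family member known as Bcl-G with 4933406J09Rik opposite it, held 0 in all 3 KO M0 libraries and 461, 461 and 555 CPM in KO M1. In the complement list 2 of 7 tested rows were higher, which is near the 25.2% of all tested rows. C3, the central component, held 0, 3.97 and 6.10 CPM in KO M0 and 458, 474 and 315 CPM in KO M1. C1qb, C1qc, C3ar1, Cfp and Cfb were not called.

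**Figure D3:**
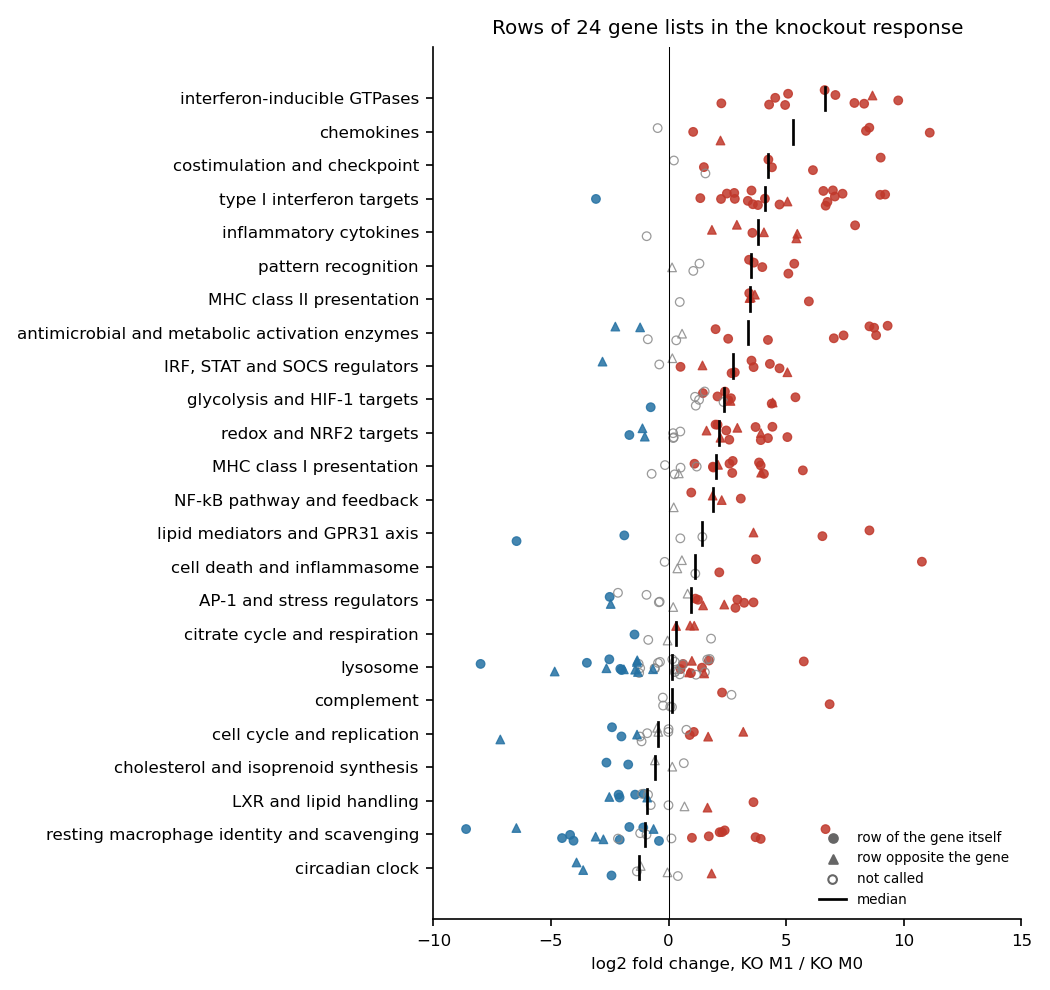
Log2 fold change between KO M1 and KO M0 of the tested rows of each of the 24 gene lists (points, coloured by call), with the median of each list as a bar. The GTPases and the type I interferon targets lie right of 0 except Ifi27l2a, while the lysosome and resting macrophage lists spread to both sides. Fold changes of rows with a group at 0 are fitted values that depend on the method.

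Rows outside the lists were among the largest rises too. Ghdc, named for a GH3 domain, held 0 in all 3 KO M0 libraries and 1040.0, 732 and 939 CPM in KO M1. Rnf219, a ubiquitin ligase of replication origins, held 0 in all 3 KO M0 libraries and 517, 500.2 and 621 CPM in KO M1. Both were at 0 in every M0 library and neither had an opposite-strand exon, with rises of at least 451-fold and 275-fold. Rarg, the retinoic acid receptor γ, held 0 in all 3 KO M0 libraries and 143, 76.4 and 164 CPM in KO M1. These rows ranked among the 15 largest rises with no overlap and a mean of 100 CPM or more, beside Cxcl9, Bcl2l14, Gbp2, Acod1, Ifit2, Tnfrsf8, Rsad2, Nos2, Cd38, Mir6381, Ptgs2 and Ccl5.

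A few rows carried much of the gain. Summed over the risen rows, the mean level rose by 526199 CPM, of which 2 rows gave 35.3% and 6 rows 50.2%. The AV051173 row, a long noncoding RNA on chromosome 4 at 116684962 to 116686022 that overlaps Prdx1, a peroxide-reducing enzyme, held 9338, 8358 and 7688 CPM in KO M0 and 111808, 153617 and 120020.0 CPM in KO M1. Its M1 libraries were all above its M0 libraries (log2 fold change 3.92 ± 0.16 SE, edgeR adjusted p = 1.45e-09). The Prdx1 row held 3.92, 15.9 and 10.2 CPM in KO M0 and 273, 477 and 267 CPM in KO M1 and rose too. After AV051173 and Mir6381 came Zmynd15, then 3110062M04Rik, now Cyren, a DNA repair regulator, opposite Tmem140, at 11597, 12044 and 11393 CPM in KO M0 and 35597, 33195 and 34602 CPM in KO M1. Next was Sla2, an adaptor that dampens antigen receptor signals, opposite Rab5if, at 6133, 5538 and 5822 CPM in KO M0 and 23524, 22221 and 21047 CPM in KO M1. It was followed by Tmem132a, opposite Slc15a3, a lysosomal peptide transporter, at 20370.1, 17666 and 20025 CPM in KO M0 and 40776, 31773 and 33780.0 CPM in KO M1. None of these 6 rows overlapped between states.

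Redox and glycolysis rows rose more often than they fell. Of 20 tested rows of the redox and NRF2 list, 13 were called higher and 3 lower (11 and 3 by library size alone). Prdx5, another peroxiredoxin, opposite Trmt112, held 3.92, 7.94 and 0 CPM in KO M0 and 107, 92.1 and 73.2 CPM in KO M1. Hmox1, the heme-degrading enzyme, held 7.84, 5.95 and 8.14 CPM in KO M0 and 131, 86.9 and 78.2 CPM in KO M1. Gm15441, opposite Txnip, the thioredoxin inhibitor, fell from 28142, 37861 and 34473 CPM in KO M0 to 15933, 15952 and 14603 CPM in KO M1. Of 15 tested rows of the glycolysis and HIF-1 list, 9 were called higher and 1 lower (8 and 1 by library size alone). Hif1a, opposite Gm15283, held 7.84, 1.98 and 0 CPM in KO M0 and 65.4, 129 and 30.3 CPM in KO M1 and rose. Hk3, the hexokinase of myeloid cells, held 3.92, 0 and 0 CPM in KO M0 and 65.4, 71.1 and 65.6 CPM in KO M1. The Unc5a row opposite it held 84.3, 67.5 and 77.3 CPM in KO M0 and 1845, 1461 and 1637 CPM in KO M1. Pfkp, the platelet-type phosphofructokinase, opposite Pitrm1, fell from 309.8, 218 and 173 CPM in KO M0 to 152, 132 and 131 CPM in KO M1, with an adjusted p of 0.0975 without the first KO M0 library. In the citrate cycle and respiration list 3 of 7 tested rows were higher and 1 lower, but 1 and 2 by library size alone. Of all tested rows 25.2% were higher and 22.4% lower. The lower row was Pdha1, a subunit of pyruvate dehydrogenase, at 51.0, 107 and 136 CPM in KO M0 and 35.7, 34.2 and 35.3 CPM in KO M1. Map3k15 opposite it was at 3149, 2587 and 2230.2 CPM in KO M0 and 3705, 2822 and 3414 CPM in KO M1, with overlap. It was called higher with a log2 fold change of 0.32 that turned to −0.15 by library size alone.

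Markers of resting macrophages were among the rows that fell. Of 24 tested rows of the resting identity and scavenging list, 12 were called lower and 8 higher (13 and 6 by library size alone), with a median log2 fold change of −1.01. The 20 rows named for a member were evenly split, 8 lower and 8 higher, and the 4 rows opposite a member were all lower. Of all tested rows 22.4% were lower and 25.2% higher. Cd163, the receptor that clears haptoglobin and hemoglobin, on chromosome 6 with no opposite-strand exon, held 1829, 2899 and 2977 CPM in KO M0 and 2.97, 5.27 and 10.1 CPM in KO M1. All M1 libraries were far below all M0 libraries (log2 fold change −8.61 ± 0.47 SE, edgeR adjusted p = 2.52e-08). Cx3cr1, the fractalkine receptor, opposite Gm33858, held 70.6, 69.4 and 65.1 CPM in KO M0 and 0, 5.27 and 2.52 CPM in KO M1. The Selenop locus, which encodes a selenium carrier, fell on both strands. Selenop held 68.6, 93.3 and 48.8 CPM in KO M0 and 0, 10.5 and 0 CPM in KO M1. Ccdc152 opposite it held 155, 212 and 187 CPM in KO M0 and 2.97, 2.63 and 0 CPM in KO M1. At the locus of the scavenger receptor Stab1, the Nt5dc2 row opposite it fell from 2489.9, 2437 and 3215 CPM in KO M0 to 386, 247 and 315 CPM in KO M1, and the Stab1 row had a log2 fold change of −0.41 ± 0.13 (SE, edgeR adjusted p = 0.00766). The 8 higher rows included Marco, a scavenger receptor for bacteria, at 0, 1.98 and 0 CPM in KO M0 and 44.6, 142 and 101 CPM in KO M1. Its ratio, from 1 count in M0, was 147 (95% counting interval 25.9 to 5878).

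Csf1r, the receptor for the growth factor that keeps macrophages alive, has its own row and a row opposite it, Hmgxb3. Which strand either row counted is not known, so the fall of Hmgxb3 cannot be assigned to Csf1r. The Hmgxb3 row there held 1006, 1141 and 1259.6 CPM in KO M0 and 184, 150.1 and 164 CPM in KO M1. The Csf1r row held 116, 119 and 61.0 CPM in KO M0 and 32.7, 79.0 and 27.8 CPM in KO M1. M1 lay below M0 without overlap in Hmgxb3, whereas the second M1 library of Csf1r reached into the M0 range, with log2 fold changes of −2.77 ± 0.18 and −1.08 ± 0.40 (SE) and edgeR adjusted p of 8.59e-15 and 0.0254. The Csf1r call was lost when the first or second KO M0 library or the first or the third KO M1 library was left out, with adjusted p of 0.0976, 0.107, 0.108 and 0.142. Lyz2, the lysozyme of macrophages, held 318, 429 and 185 CPM in KO M0 and 109.9, 108 and 75.7 CPM in KO M1 and fell. Fcgr1, the high-affinity IgG receptor, held 0, 0 and 4.07 CPM in KO M0 and 11.9, 52.7 and 7.57 CPM in KO M1 and rose, with an adjusted p of 0.158 without the second KO M1 library.

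The 2 largest losses in level were in the Ctsa row and the row opposite Ctsb. Summed over the fallen rows, the mean level fell by 202969 CPM, and 2 rows gave 25.1% of it. The Ctsa row, which encodes a lysosomal carboxypeptidase and overlaps Pltp and Neurl2 on chromosome 2, held 39650.0, 29561 and 28940.1 CPM in KO M0 and 7494, 4415 and 5192 CPM in KO M1. The Fdft1 row, squalene synthase, opposite the protease gene Ctsb on chromosome 14, held 26899, 31298 and 27039.5 CPM in KO M0 and 4151, 4615 and 4869 CPM in KO M1. M0 and M1 did not overlap in either row, and the log2 fold changes were −2.52 ± 0.28 and −2.64 ± 0.10 (SE), with edgeR adjusted p of 7.81e-05 and 5.34e-19. The Ctsb row itself held 257, 325 and 89.5 CPM in KO M0 and 107, 229 and 111 CPM in KO M1 and was not called (log2 fold change −0.58 ± 0.39 SE, edgeR adjusted p = 0.242). The next losses were Gm15441, Krr1 opposite Glipr1, Card14 opposite Sgsh, and 0610039K10Rik opposite Serinc3. Card14 held 5117, 5482 and 5022 CPM in KO M0 and 169, 158 and 214 CPM in KO M1. Sgsh, a lysosomal sulfatase on the other strand of chromosome 11, held 74.5, 81.4 and 59.0 CPM in KO M0 and 0 in all 3 KO M1 libraries. Both rows of that locus fell without overlap.

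Over the 41 tested rows of the lysosome list, 13 were called lower and 9 higher, or 16 and 6 by library size alone. The median log2 fold change was 0.16, where 22.4% of all tested rows were lower and 25.2% higher. The 29 rows named for a member did not lean to falls, with 5 lower and 6 higher. Among the 12 rows opposite a member, 8 were lower and 3 higher. Arsa, a sulfatase, opposite C230037L18Rik, held 62.7, 59.5 and 67.2 CPM in KO M0 and 8.91, 0 and 7.57 CPM in KO M1 and fell. Ctsc, a protease that activates granule enzymes, held 0, 1.98 and 8.14 CPM in KO M0 and 214, 245 and 124 CPM in KO M1 and rose, as did Npc2, which moves cholesterol out of the lysosome, at 39.2, 27.8 and 10.2 CPM in KO M0 and 47.5, 132 and 75.7 CPM in KO M1. In the cholesterol and isoprenoid synthesis list 2 of 5 tested rows were lower and none higher. These were Fdft1, opposite Ctsb, and Sqle, squalene epoxidase, the latter at 406, 351 and 474 CPM in KO M0 and 146, 118 and 111 CPM in KO M1. Only 3 of the 27 genes of that list were tested in their own row, and 10 had no count in any KO library. In the LXR and lipid handling list 6 of 13 tested rows were lower and 2 higher. Apoe, the lipoprotein component, held 1172, 1262 and 1162 CPM in KO M0 and 365, 266 and 219 CPM in KO M1. Lpl, lipoprotein lipase, held 84.3, 97.2 and 52.9 CPM in KO M0 and 0, 26.3 and 25.2 CPM in KO M1. Both fell, whereas Acsl1, a fatty acid activating enzyme, opposite Gm45244, rose from 3.92, 3.97 and 0 CPM in KO M0 to 17.8, 57.9 and 30.3 CPM in KO M1.

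Several of the largest falls were rows that nearly emptied in M1. Nat8l, which makes N-acetylaspartate, held 139, 202 and 161 CPM in KO M0 and 0 in all 3 KO M1 libraries. Cul9, a cullin, held 133, 113 and 132 CPM in KO M0 and 0 in all 3 KO M1 libraries. Both were at 0 in every M1 library, at least 62.1-fold and 46.8-fold lower. Neither has an opposite-strand exon, and the nearest opposite genes, Poln and Dnph1, end 1263 and 948 bases away. Prune2, a relative of the phosphatase Prune, held 1955, 1611 and 2000.3 CPM in KO M0 and 5.94, 2.63 and 12.6 CPM in KO M1. Exosc9, a subunit of the RNA exosome, opposite Ccna2, the S-phase cyclin A2, held 227, 119 and 159 CPM in KO M0 and 2.97, 0 and 0 CPM in KO M1. The Ccna2 row held 702, 653 and 667 CPM in KO M0 and 773, 582 and 666 CPM in KO M1. Exosc9 fell without overlap, and Ccna2 had a log2 fold change of −0.0025 (95% interval −0.27 to 0.26). Others among the 15 largest falls lay opposite a named gene: 9130019P16Rik opposite Chn2, Prr15 and Wipf3, Gm16897 opposite Cd34 and A330023F24Rik, Ccdc127 opposite Lrrc14b, Ddx39 opposite Adgre5 and Gm13031 opposite Padi2. The last of these, Gm13031, held 304, 264 and 199 CPM in KO M0 and 20.8, 5.27 and 0 CPM in KO M1. Gramd4, Osbpl11 and Mbd4, the last opposite Gm44206, completed the 15, beside Cd163, Ccdc152 and Card14.

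Of 16 tested rows of the cell cycle list, 4 were called higher and 4 lower, near the 25.2% and 22.4% of all tested rows, or 2 and 7 by library size alone. Aurka, the mitotic kinase, held 64.7, 53.6 and 77.3 CPM in KO M0 and 11.9, 5.27 and 30.3 CPM in KO M1 and fell, and the Oraov1 row, opposite Ccnd1, the G1 cyclin D1, rose from 1853, 1010.0 and 1164 CPM in KO M0 to 13425, 11339.5 and 11641 CPM in KO M1. The Tk1 row, thymidine kinase, opposite Afmid, was called higher at 68.6, 79.4 and 130.2 CPM in KO M0 and 146, 213 and 225 CPM in KO M1, but its adjusted p was 0.0912 by library size alone. Of 8 tested rows of the circadian clock list, 3 were called lower and 1 higher, to be set beside the same shares of all tested rows. Nr1d1, the repressor REV-ERBα, held 171, 189 and 246 CPM in KO M0 and 35.7, 31.6 and 42.9 CPM in KO M1. Thra, the thyroid hormone receptor gene that overlaps its end, held 137, 85.3 and 116 CPM in KO M0 and 11.9, 2.63 and 7.57 CPM in KO M1. Both fell in every M1 library below all M0 libraries. Sphk2, a sphingosine kinase, opposite Dbp, a clock output factor, and Rpl18, held 1541, 1885 and 1739.8 CPM in KO M0 and 157, 89.5 and 169 CPM in KO M1 and fell.

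Where both partners of a locus were called, they more often moved alike than apart. There were 394 pairs of tested rows with overlapping opposite exons. Both rows were called in 110 pairs, 78 of them with equal signs and 32 with unequal signs, and 1 row was called in 178 pairs, in which a difference between the partners was not tested. Mir6381 with Gbp2, Unc5a with Hk3 and Card14 with Sgsh moved alike. Fosl1 with Ccdc85b moved apart. So did 3110062M04Rik with Tmem140 and Myef2 with Slc24a5, which were chosen after their values were seen: the Tmem140 row went from 331 to 73.7 CPM and the Myef2 row from 173 to 12.8 CPM in the mean.

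**Figure D4:**
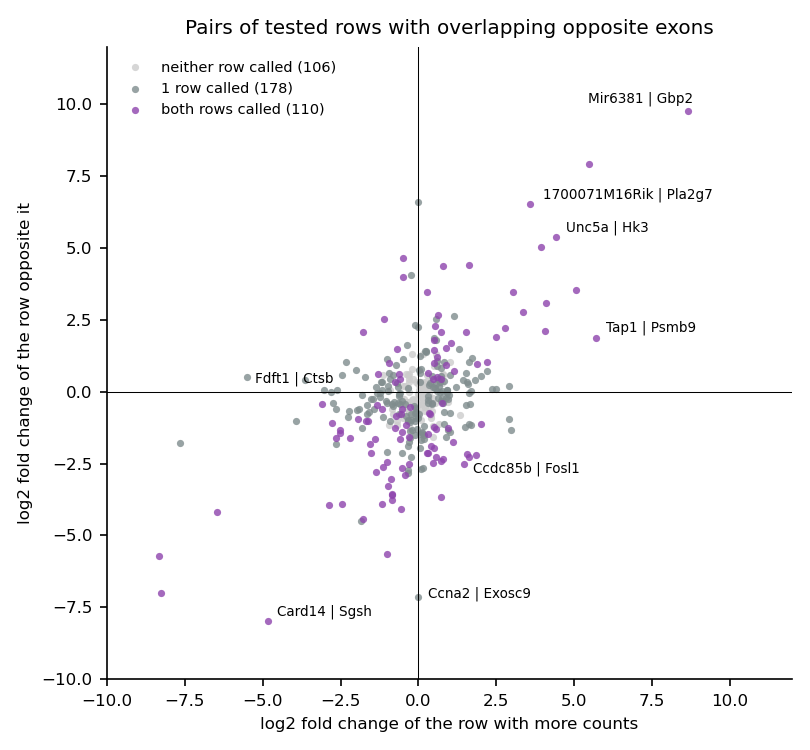
Log2 fold change between KO M1 and KO M0 for the 394 pairs of tested rows with overlapping opposite exons, the row with more counts on the x axis and its partner on the y axis. Of the 110 pairs with both rows called, 78 lie in the quadrants where both signs are the same and 32 in the others. Fitted fold changes of rows with a group at 0 depend on the method.

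Among the rows named for microRNAs, 14 were tested, of which 4 were called higher and 4 lower, near the 25.2% and 22.4% of all tested rows, and 13 had an opposite-strand exon. Libraries of polyadenylated RNA hold primary transcripts and not mature microRNAs, so these rows say nothing of the mature forms. After Mir6381, Mir6340, opposite Rab22a, held 422, 383 and 378 CPM in KO M0 and 1251, 1119 and 1075 CPM in KO M1. Mir6244, opposite Zc3h12c, held 104, 109 and 157 CPM in KO M0 and 517, 361 and 515 CPM in KO M1. Both rose without overlap. Mir130c, opposite Kdelc2, fell from 296, 256 and 232 CPM in KO M0 to 41.6, 10.5 and 27.8 CPM in KO M1. Mir3074-1, opposite 2010111I01Rik and Mir24-1, fell from 159, 161 and 108 CPM in KO M0 to 44.6, 5.27 and 15.1 CPM in KO M1. The 2010111I01Rik row was not called (log2 fold change −0.40, edgeR adjusted p = 0.487). The mature sequences of these microRNA rows, chosen after their values were seen, are given from RefSeq on GRCm38.p6 with the seed in capitals. They show that no 2 of them share a seed.
mmu-miR-6340: gUCAGCAGcagcuucgcuuuggc
mmu-miR-6244: gGGGGCGUggaauuaucgggu
mmu-miR-130c: cAGUGCAAuguuccaaggugug
mmu-miR-3074-5p: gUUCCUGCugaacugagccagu

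At the threshold itself the calls were divided by small differences in p. The 3 rows just inside were Mest, opposite Copg2, Borcs6, opposite 9330160F10Rik, and Trim65, with adjusted p of 0.0497, 0.0499 and 0.0499. Just outside were Zfhx2os, opposite Zfhx2, Tssk6, opposite Ndufa13, and Otub2, with adjusted p of 0.0503, 0.0503 and 0.0503 in edgeR. All 3 calls inside were lost without a filter on low counts, with adjusted p of 0.0848, 0.0952 and 0.11. Mest, an imprinted gene, held 298, 321 and 326 CPM in KO M0 and 291, 239.6 and 161 CPM in KO M1, without overlap.

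The KO response was then set beside the WT response. The same test called 1138 rows in WT cells (48.8%), and 927 rows were called in both genotypes, all in the same direction. A further 183 rows were called in KO cells alone, of which 173 had a WT fold change of the same sign, and 211 in WT cells alone. A call in 1 genotype alone is not a difference, so the interaction of genotype with stimulation was tested. It called 0 of 2333 rows (0%) in edgeR, with a smallest adjusted p of 0.122. Before adjustment, 144 rows had p under 0.05. DESeq2 and limma-voom also called 0, with 138 and 123 rows before adjustment. With same-numbered libraries fitted as pairs, edgeR called 3 rows (0610040F04Rik, Gm16712 and Sphk2), each with an adjusted p of 0.0248. The 95% interval of the interaction lay within 2-fold in either direction for 641 rows (27.5%), and for 632 of the 996 rows with 100 CPM or more in a KO group (63.5%). For the other rows a 2-fold difference between the genotypes was not excluded by the interval.

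The 6 rows called in KO cells with the smallest interaction p are given as values only. The 0610040F04Rik row, opposite Bhlhe40, a transcriptional repressor of the clock, held 192, 99.2 and 185 CPM in KO M0 and 416, 685 and 590.4 CPM in KO M1, and 259, 202 and 347 CPM in WT M0 and 376, 341 and 333 CPM in WT M1. All KO M1 libraries lay above the KO M0 libraries, whereas the WT groups overlapped. The interaction was 1.45 ± 0.31 (SE) on the log2 scale, with an edgeR adjusted p of 0.122. This p was 3.53e-04 without a filter on low counts, and 0.0295, 0.0454 and 0.0158 without the first KO M0, the third KO M0 and the first KO M1 library. Sphk2 fell by 3.63 in KO and by 2.66 in WT cells (log2), with an edgeR adjusted p of 0.177 for the interaction, or 0.0326 without the filter. Fyco1, an adaptor of autophagosome transport, rose by 3.13 and 5.31, and Dnm2, the endocytic dynamin, opposite Tmed1, by 0.52 and 1.38. Slc24a5, opposite Myef2, had log2 fold changes of 0.73 and −0.12, and Osbpl11, an oxysterol-binding protein, of −6.96 and −3.06. In KO M1 Osbpl11 held 1 count, and the ratio of M0 to M1 was 163 (95% counting interval 29.0 to 6481). The smallest edgeR adjusted p of these last 4 interactions was 0.177, and that of Fyco1 was 0.0382 without the filter. The KO calls of Dnm2 and Slc24a5 were lost by library size alone, with adjusted p of 0.865 and 0.162, and Dnm2 also lost its call without any 1 of 3 KO libraries, with adjusted p of 0.105, 0.108 and 0.0624.

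**Figure D5:**
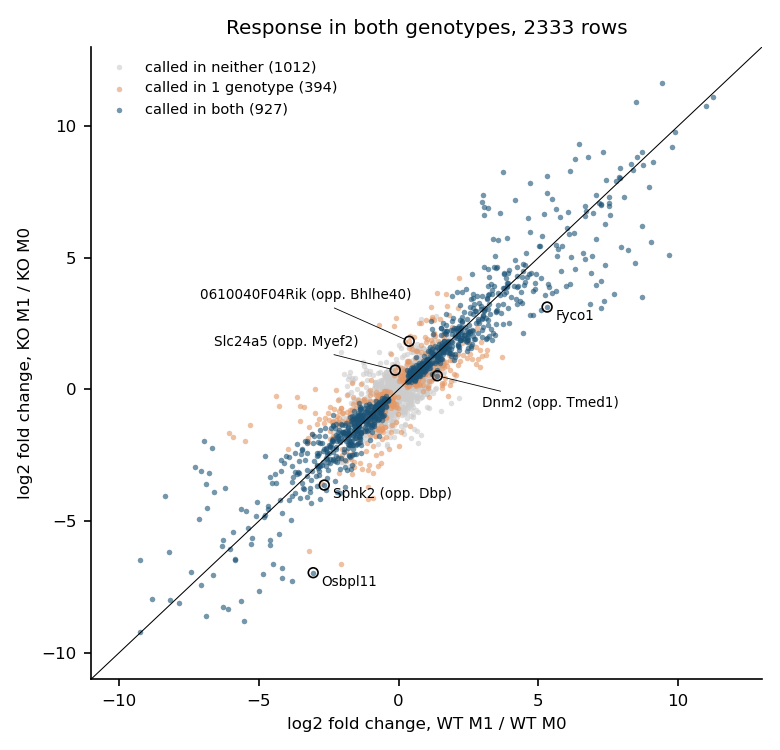
Log2 fold change between M1 and M0 of the 2333 tested rows in WT cells (x axis) and KO cells (y axis), coloured by whether a row was called in both genotypes, in 1 or in neither, with the diagonal of equal change. The 927 rows called in both lie in the quadrants of equal sign, and the 6 circled rows have the smallest interaction p among rows called in KO cells.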

How the data were processed

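Per the labels' protocols, a strand-specific TruSeq protocol for mRNA and an Illumina NovaSeq were used for the 12 libraries. The authors' deposited table gives raw counts for each gene symbol. Trimmomatic, FastQC, HTSeq, DESeq2 and mm10 are listed without versions, per the submitters' processing notes. Aligner, annotation and strand setting are not given in the sources used here.

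Row symbols were matched to GENCODE M21 (23963 rows), then by RefSeq span (180) or synonym (139), and 270 stayed unmatched. Symbols turned into dates made up 26 rows with 0.0104% of the counts. Rows passing filterByExpr were fitted in 1 edgeR 4.0.16 quasi-likelihood model with 4 groups and TMM, and called at a Benjamini-Hochberg adjusted p under 0.05 over 2333 rows. DESeq2 1.42.0 and limma 3.58.1 were alternatives. The model was tested on simulated data.

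Rows were named by rule: the 15 largest rises and falls with 100 CPM or more and no overlap, the 6 largest gains and losses in CPM, up to 3 called rows per list and direction, the 6 smallest interaction p, fixed genes, and rows at the threshold. Not every row so chosen is given values. The rows of Xcr1, Clec9a, Gbp5, Parp9, Irf1, Ccl3, Psmb9, Ccdc85b, Selenop, Nt5dc2, Ccna2, Tmem140 and Myef2, and the microRNA rows other than Mir6381, were added after their values were seen. The 24 gene lists, like the members, were chosen with earlier results of these data known. Of KO counts from 1 to 12, 60.7% were even, so counts may not be independent, and bounds and counting intervals, which cover counting error alone, may be too narrow. Standard errors can be too small where a group is near 0. Reads copied by PCR without molecular tags are not separate molecules. Same-numbered libraries were not taken as pairs.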

Additional observations from a re-analysis of the deposited data

How the results depend on the processing

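The number of rows called in KO cells stayed within 1.5 times of 1110 under all alternatives run: 1118 with DESeq2's size factors in edgeR, 1243 by library size alone, 1115 by DESeq2, 1134 by limma-voom, 1072 without a filter, 760 of 1251 rows when a mean of at least 20 counts was required, and 987 with the 6 KO libraries alone. Leaving out each KO library in turn gave 1016 to 1068. By library size alone 850 rows were lower, and the median log2 fold change was −0.46. That stricter filter left 374 rows higher, the median was −0.011, and 757 WT rows were called, since fewer rows were tested. The median ran from −0.044 to 0.016 when a KO library was left out. The log2 fold change of Map3k15 turned to −0.15 by library size alone. The interaction called 3 rows without a filter (0610040F04Rik, Fyco1 and Sphk2), and 0 to 3 when a KO library was left out: 0610040F04Rik without the first or the third KO M0 library or the first KO M1 library, and Mir6381 and Psd without the first KO M0 library.

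Same-numbered M0 and M1 libraries deviated together only weakly, with correlations of 0.0697, 0.108 and 0.0313 in KO cells and 0.0858, 0.0979 and 0.0629 in WT cells. Each library still correlated best with its own number, so these values do not decide whether the libraries are pairs. The labels do not say whether equal numbers mark the same animal, and the numbers were not taken as pairs in the main fit. With the replicate block the calls numbered 1102 (579 rises, 523 falls), and the interaction called 3 (0610040F04Rik, Gm16712 opposite Ebi3, and Sphk2, each with an adjusted p of 0.0248). The cause of these shifts was not tested. Over the 130 named rows, 1690 alternative values kept direction and side of the threshold, 60 lost the call, 18 gained it and 1 changed sign.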
